A study of Mus musculus with 6 samples.

Results

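The genes described here are the inflammatory cytokines and the cytokines that drive IFN-γ production, with the secreted inhibitors of IL-1 and IL-18. The rule took the rows of the count table whose symbol was Il1a, Il1b, Il1rn, Il6, Tnf, Il12b, Il15, Il18, Il18bp or Il27, and it found 10 of 10 genes among the 55487 listed. RNA was sequenced from subcutaneous tumors grown from CT26.WT, a colon carcinoma cell line of BALB/c mice, in 3 control tumors and 3 tumors of the IFN-γ group. The hosts were immunocompetent wild-type BALB/c mice, male and 4 weeks old at purchase, injected through the tail vein with IFN-γ every 48 h or, in the control group, with PBS. The comparison asked how repeated systemic IFN-γ altered gene expression in tumors that had an intact immune environment. The libraries were made from whole tumors, so tumor cells and infiltrating host cells were measured together, and fewer cells of a type and less RNA per cell cannot be told apart. The labels do not say that each tumor came from its own mouse, so the p-values measure the spread between these 6 samples.

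IL-1α and IL-1β are agonists of the same receptor and drive fever, neutrophil recruitment and acute inflammation, and the product of Il1rn blocks that receptor. TNF and IL-6 are further products of activated macrophages, and IL-6 also comes from fibroblasts. IL-12, IL-15, IL-18 and IL-27 act on T cells and natural killer cells and favor the making of IFN-γ. In turn, IFN-γ is known to induce several genes of this circuit, among them Il18bp, whose product binds and neutralizes IL-18, and Il15 and Il27.

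Totals were 15759300 to 17559680 counts per tumor, and 3 counts, taken as the floor, corresponded to 0.169 to 0.188 CPM (each count divided by the total of its library, with TMM scaling, and given on the usual CPM scale). This floor is a fixed number of counts and does not cover the spread between tumors. Of 7 markers of colon epithelium, Cdx2 had 0 counts in every tumor and Vil1 and Epcam stayed under 1 CPM, at up to 0.286 and 0.928 CPM. Krt20 lay between 113 and 271 CPM, Krt18 between 6.41 and 10.4 CPM and Cdh1 between 1.28 and 2.46 CPM. Krt8 varied most between tumors, from 0.186 to 12.1 CPM. IFN-γ tumor 3 stood apart: edgeR called 12 genes higher and 5 lower with it, against 381 and 112 without it, and it was the only tumor above 14.3 CPM in the sum of 6 keratinocyte markers, at 72.0 CPM. Values of the 10 genes without that tumor are therefore given where the call or direction changed, and the calls of each list without it are given by their number. Among the IFN-γ tumors, tumor 3 was also the lowest for Il18bp and for the summed genes known to be induced by IFN-γ. For such genes, a call without it leaves out the tumor that went against the call. These calls rest on fewer IFN-γ tumors and are no separate support.

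The promoters of Il18bp and Il18 are shown for the ratio of this inhibitor to its cytokine. Of 4 ratios, it was the only one whose groups did not overlap. That of Il6 is shown because it alone of the promoters searched held a κB motif. Each run is 300 bases of the RefSeq table for GRCm38.p6, from 250 bases before the start to 50 after it, 5′ to 3′ on the strand of the gene, with a κB site in capitals. The Il18bp window lies at chr7:102018183-102018482 on the minus strand, that of Il18 at chr9:50554450-50554749 on the plus strand, and that of Il6 at chr5:30012864-30013163 on the plus strand. In the annotation used for gene positions, Il18bp begins at 102018690, so its whole window lies inside the gene and not upstream of that start. Il18 begins there at 50554827, so its window ends before that start. Other starts of these genes were not searched.
Il18bp: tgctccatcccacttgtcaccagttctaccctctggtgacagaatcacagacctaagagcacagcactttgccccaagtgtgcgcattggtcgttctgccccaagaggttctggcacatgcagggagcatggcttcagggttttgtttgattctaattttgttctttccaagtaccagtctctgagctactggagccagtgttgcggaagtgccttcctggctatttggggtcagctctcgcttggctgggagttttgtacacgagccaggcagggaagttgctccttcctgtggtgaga
Il18: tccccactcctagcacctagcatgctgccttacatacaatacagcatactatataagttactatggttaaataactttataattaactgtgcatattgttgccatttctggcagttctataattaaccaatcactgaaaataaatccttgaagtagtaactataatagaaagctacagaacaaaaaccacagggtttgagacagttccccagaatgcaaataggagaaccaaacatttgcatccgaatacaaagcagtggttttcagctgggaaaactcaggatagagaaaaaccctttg
Il6: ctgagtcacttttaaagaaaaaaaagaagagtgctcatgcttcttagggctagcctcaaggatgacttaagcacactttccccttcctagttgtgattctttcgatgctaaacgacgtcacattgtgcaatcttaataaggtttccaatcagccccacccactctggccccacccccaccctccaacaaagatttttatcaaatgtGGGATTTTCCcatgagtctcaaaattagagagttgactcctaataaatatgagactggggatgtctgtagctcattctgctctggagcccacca

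Of the 10 genes, 8 had a listed promoter. Il15 and Il27 had none and were not searched. The ISRE letters (GAAANNGAAA), read by interferon regulatory factors, were in 0 of 8, beside 3.99% of the 27025 genes with a promoter. The κB letters (GGGANNTTCC), a form bound by NF-κB, were in 1 of 8, beside 1.63% of genes. In Il6 they began 44 bases before the start, as GGGATTTTCC. Both strands were searched, and a gene with several listed starts was counted when any of them held the letters. A missing match says only that these letters are not in this window, which for Il18bp lies inside the gene. The counts therefore say nothing about Il15 or Il27, or about sequence upstream of the annotated start of Il18bp.

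None of the 10 genes differed between the groups past the adjusted threshold of 0.05, with edgeR's quasi-likelihood test in all 6 tumors. All 10 passed the filter on low counts, and 0 of 10 were called, beside 0.112% of the 15114 genes tested. At an unadjusted p under 0.05 the number was 2 of 10, Il15 and Il18bp, beside 10.2% of all genes tested. Both had higher means in the IFN-γ group, the direction of 5.74% of all genes at that p, and 0 had lower ones, beside 4.44%. DESeq2 called 0 of the 8 to which it gave an adjusted p, all but Il1a and Il6, beside 1.47% of all genes with one, and 0 of the 10 were called by limma-voom, beside 0.086%, and by edgeR with no filter on low counts, beside 0.819%. The log2 fold change was above 0 for 8 of the 10 genes and below 0 for 2, beside 50.4% of all genes above and 49.6% below 0, and its median was 0.25, beside 0.00 over all genes tested. The groups did not overlap for 1 of the 10 genes, Il15, which was higher in the IFN-γ group, as were 7.62% of all genes tested.

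**Figure D1:**
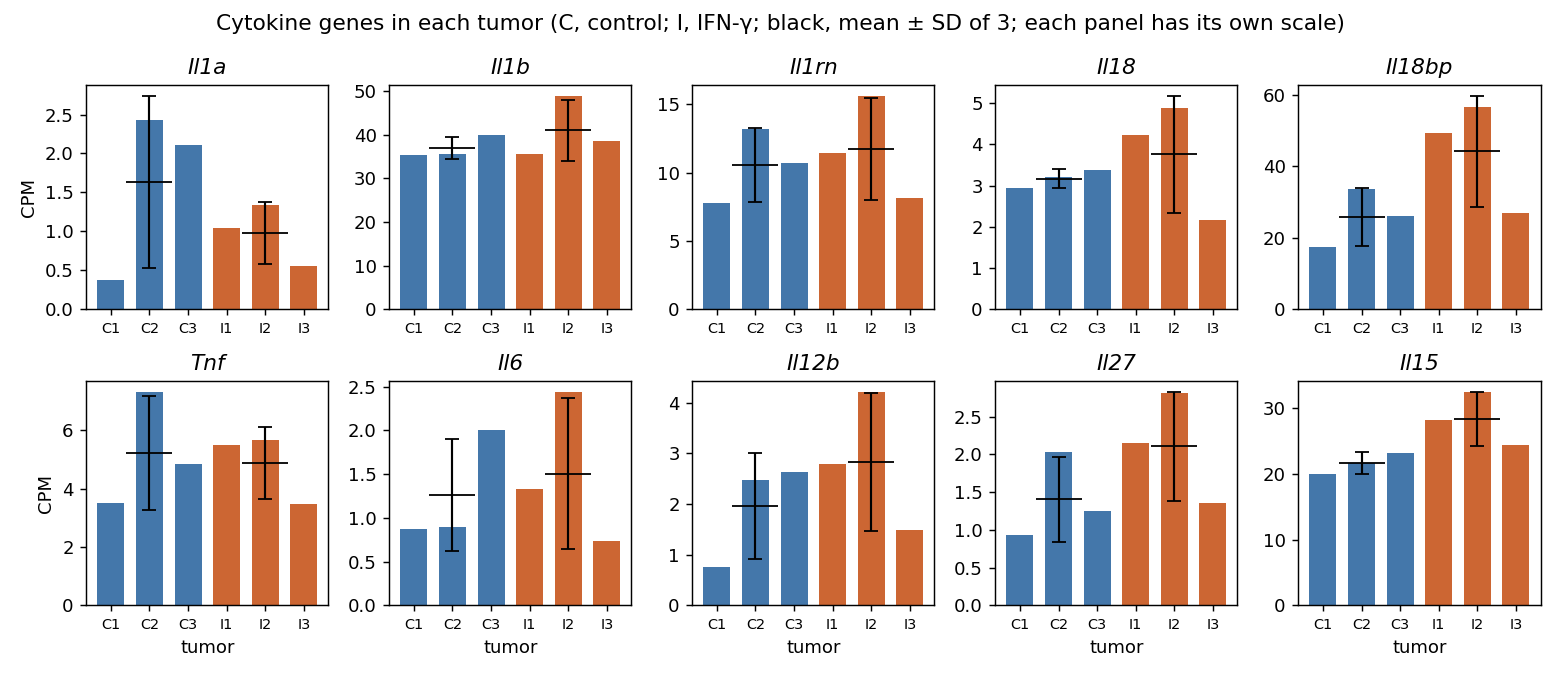
CPM of the 10 genes (vertical axes, each panel from 0 on its own scale) in control tumors 1 to 3 (C1 to C3, blue) and IFN-γ tumors 1 to 3 (I1 to I3, orange), with the mean and SD of each group in black. IFN-γ tumor 2 was the highest for 8 of the 10 genes, and the groups were separate for Il15 alone.

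Levels between genes were compared as CPM per kilobase of annotated exon. In the control group Il1b stood far above the others, at a mean of 19.4 CPM per kilobase, followed by Il15 at 9.57 and Il18bp at 8.49. Tnf at 3.19 and Il18 at 3.08 came next, then Il1rn at 1.91, Il27 at 1.38, Il12b at 0.993, Il1a at 0.830 and Il6 at 0.519 CPM per kilobase. The lowest control tumor for Il1b, at 18.6, was above the highest for Il15, at 10.3 CPM per kilobase, and Il18 at 2.85 or more was above Il1rn at up to 2.38. Il18bp at 5.76 or more was above Tnf at up to 4.47. All other neighbors in this order overlapped between tumors. In the IFN-γ group the mean of Il18bp, 14.6, was above that of Il15, 12.6 CPM per kilobase, and the tumors of the 2 genes overlapped.

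Among the IL-1 genes, Il1b was nearly level and Il1a was low and scattered. Il1b (ENSMUSG00000027398, chromosome 2, 129364570 to 129371139, minus strand of GRCm38) encodes the secreted agonist that inflammasomes release. It was at 35.4, 35.6 and 39.9 CPM in control tumors 1, 2 and 3, against 35.6, 49.0 and 38.6 CPM in IFN-γ tumors 1, 2 and 3. The groups overlapped, and only IFN-γ tumor 2 lay above the highest control. By edgeR the fold change was 0.15 on the log2 scale (standard error, SE, of 0.13, 95% interval -0.14 to 0.44, adjusted p = 0.75), so a change beyond 1.36-fold up or to below 0.908 of the control level lay outside the interval.

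Il1a (ENSMUSG00000027399), on the same strand of chromosome 2 from 129299610 to 129309972, encodes the agonist that dying and stressed cells release. It had 6, 43 and 37 counts in the control tumors, or 0.375, 2.42 and 2.11 CPM, and 18, 22 and 9 counts in the IFN-γ tumors, or 1.04, 1.34 and 0.557 CPM. Control tumor 1 was the lowest of the 6, and the other controls were the highest. Its difference on the log2 scale was -0.74 (SE 0.61, edgeR adjusted p = 0.75), with a 95% interval from -2.15 to 0.66 that left both a fall and a rise possible. Of its exon bases 222, or 11.2%, are shared with Gm14023 on the opposite strand, at 0.124 to 0.451 CPM, and the part of those reads in the Il1a counts was not tested.

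Il1rn (ENSMUSG00000026981, chromosome 2, 24336853 to 24351494, plus strand) encodes the IL-1 receptor antagonist. It was at 7.81, 13.2 and 10.7 CPM in the control tumors, against 11.4, 15.6 and 8.16 CPM in the IFN-γ tumors. The groups overlapped over most of their range, with a log2 fold change of 0.15 (standard error 0.27, edgeR adjusted p = 0.90). Without IFN-γ tumor 2 the sign was negative, at -0.11, and without control tumor 1 it was -0.027.

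None of the receptor genes of IL-1 passed the adjusted threshold. Il1r1, the signaling receptor of both agonists, was at 91.1, 97.1 and 101.1 CPM in the control tumors, against 79.3, 69.0 and 86.6 CPM in the IFN-γ tumors. Every IFN-γ tumor was under every control, as for 7.5% of all genes tested, and the log2 fold change was -0.30 (standard error 0.095, edgeR adjusted p = 0.36). The decoy receptor Il1r2 ranged from 1.10 to 3.30 CPM over the 6 tumors, and the shared chain Il1rap from 33.2 to 50.7 CPM, both with overlapping groups.

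The IL-18 branch held the largest positive fold change of the 10 genes, that of the inhibitor. Il18bp (ENSMUSG00000070427, chromosome 7, 102014885 to 102018690, minus strand) was at 17.4, 33.7 and 26 CPM in control tumors 1, 2 and 3, against 49.2, 56.6 and 26.8 CPM in IFN-γ tumors 1, 2 and 3. IFN-γ tumors 1 and 2 were above all controls, while IFN-γ tumor 3 lay between control tumors 2 and 3, so the groups overlapped. The means were 25.7 ± 8.11 CPM and 44.2 ± 15.5 CPM (SD, n = 3 each), a ratio of 1.72. On the log2 scale, the IFN-γ group differed by 0.78 (SE 0.30, 95% interval 0.096 to 1.47, unadjusted p = 0.030, edgeR adjusted p = 0.42).

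When IFN-γ tumor 3 was left out, Il18bp had a log2 fold change of 1.03 (SE 0.22, edgeR adjusted p = 0.046) and the gene passed the threshold. It was then the 1 of 10 genes called, beside 2.46% of the 15487 genes tested that were called higher in that fit. The gene shares 80 bases, or 2.64% of its exon bases, with Numa1 on the opposite strand, at 207 to 248 CPM in the 6 tumors. Strandedness of the counting is not given in the sources used here, so the share of Il18bp counts that belongs to Numa1 was not tested.

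Il18 (ENSMUSG00000039217, chromosome 9, 50554827 to 50581840, plus strand) encodes the cytokine itself, which is made as a precursor and cut by caspase-1. It was at 2.94, 3.21 and 3.37 CPM in the control tumors, against 4.24, 4.89 and 2.16 CPM in the IFN-γ tumors. IFN-γ tumors 1 and 2 were above every control and IFN-γ tumor 3 was under every control. By edgeR the fold change was 0.25 on the log2 scale (SE 0.31, adjusted p = 0.84), and without IFN-γ tumor 3 it was 0.51 (edgeR adjusted p = 0.31).

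Set against each other within a tumor, Il18bp had 5.94, 10.5 and 7.71 counts for each count of Il18 in control tumors 1, 2 and 3 and 11.6, 11.6 and 12.4 in IFN-γ tumors 1, 2 and 3. Every IFN-γ tumor was above every control, IFN-γ tumor 3 included, where Il18 was under every control and Il18bp within their range. The exact 95% binomial (Clopper-Pearson) intervals of the counts were wide, from 4.35 to 8.27 in control tumor 1, from 7.97 to 14.0 in control tumor 2 and from 8.78 to 18 in IFN-γ tumor 3. They rest on 35 to 80 counts of Il18 per tumor. The mean log2 ratio, taken after adding 0.5 CPM, was 2.79 ± 0.41 in the controls, against 3.39 ± 0.024 in the IFN-γ tumors (SD, n = 3 each). The SD of the IFN-γ tumors is smaller than the counting error of each ratio, so it does not show a tightly held ratio. The difference of 0.60 had p = 0.1 in a two-sided exact permutation test, the smallest p that 3 against 3 allow, and an adjusted p of 0.4 over the 4 ratios tested. The other 3 ratios had an adjusted p of 1 each.

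**Figure D2:**
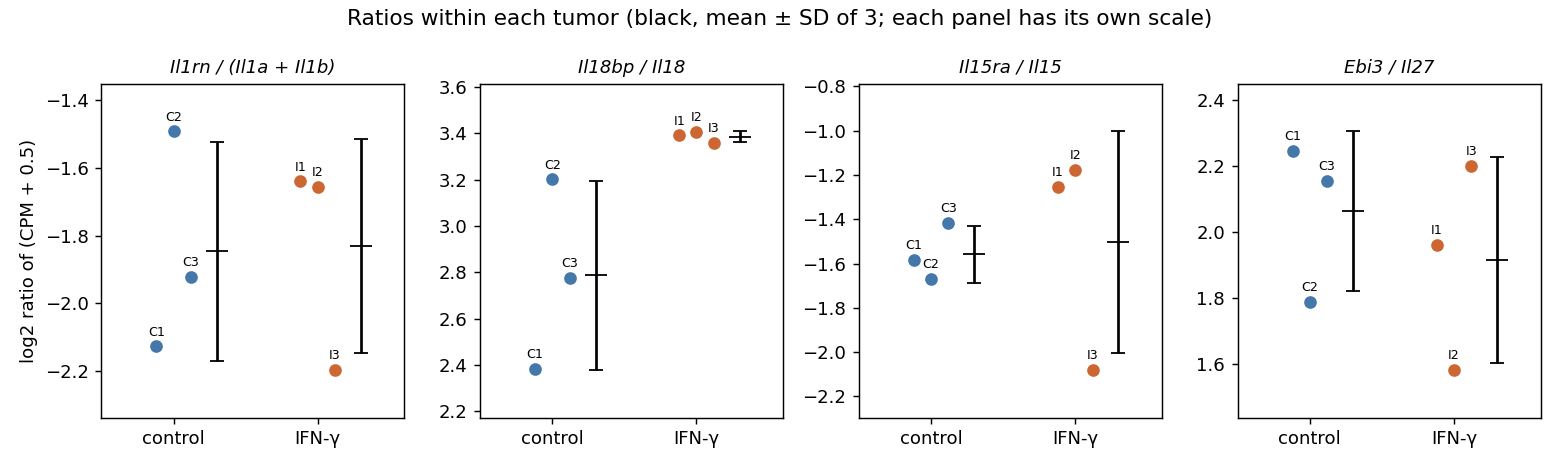
Log2 ratios of CPM plus 0.5 within each tumor (vertical axes, each panel on its own scale) for an inhibitor, receptor chain or subunit against its cytokine, by group, with the mean and SD of 3 tumors in black. The IFN-γ tumors sit between 3.36 and 3.41 for Il18bp to Il18, above all controls, and the groups overlap in the other panels. That range is narrower than the counting error of each ratio.

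The antagonist of IL-1 showed no such separation. The log2 ratio of Il1rn to the summed agonists Il1a and Il1b was -1.85 ± 0.32 in the controls, against -1.83 ± 0.32 in the IFN-γ tumors (SD, n = 3 each), a difference of 0.016 (exact permutation test, p = 1). With the same 0.5 CPM added to both sides, Il1rn was 0.218 to 0.356 of the sum of its agonists in the 6 tumors.

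Neither receptor chain of IL-18 passed the threshold. Il18r1, the binding chain, was at 6.56, 10.9 and 7.09 CPM in the control tumors, against 16, 13.6 and 5.07 CPM in the IFN-γ tumors, which edgeR put at 0.50 on the log2 scale (adjusted p = 0.73). Its pattern by tumor was that of Il18, with IFN-γ tumors 1 and 2 above all controls and IFN-γ tumor 3 under them. Il18rap, the signaling chain, was at 121 to 169 CPM in the control tumors, against 119 to 140 CPM in the IFN-γ tumors.

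TNF and IL-6 were low and did not separate the groups. Tnf (ENSMUSG00000024401, chromosome 17, 35199381 to 35202007, minus strand) was at 3.50, 7.33 and 4.86 CPM in the control tumors, against 5.51, 5.68 and 3.46 CPM in the IFN-γ tumors. Both the highest and the second lowest value were controls. Its difference on the log2 scale was -0.10 (SE 0.31, 95% interval -0.81 to 0.62, edgeR adjusted p = 0.95). Its sign was not stable, at 0.22 without control tumor 2 and 0.085 without IFN-γ tumor 3. Neither of its receptors passed, with log2 fold changes of 0.16 for Tnfrsf1a (edgeR adjusted p = 0.44) and 0.28 for Tnfrsf1b (edgeR adjusted p = 0.45). For Tnfrsf1a, whose product carries the death signal, the controls were at 142 to 145 CPM and the IFN-γ tumors at 158 to 164 CPM, without overlap. Over all genes tested, 7.62% were separate with the IFN-γ group higher.

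Il6 (ENSMUSG00000025746, chromosome 5, 30013114 to 30019981, plus strand) had 14, 16 and 35 counts in the controls, or 0.875, 0.902 and 2.0 CPM, and 23, 40 and 12 counts in the IFN-γ tumors, or 1.34, 2.44 and 0.742 CPM. The highest and the lowest tumor both belonged to the IFN-γ group. On the log2 scale, the IFN-γ group differed by 0.25 (SE 0.51, edgeR adjusted p = 0.91), and it was -0.28 without IFN-γ tumor 2. Its receptor Il6ra was at 55.6 to 63.2 CPM and the shared signal transducer Il6st at 201 to 239 CPM over the 6 tumors. For Il6st every IFN-γ tumor was above every control, as for 7.62% of all genes tested, by a log2 fold change of 0.14 (edgeR adjusted p = 0.58).

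Among the cytokines that favor IFN-γ production, Il15 had the highest level per kilobase in both groups and the narrowest range over the 6 tumors. Il15 (ENSMUSG00000031712, chromosome 8, 82331632 to 82403222, minus strand) encodes the cytokine that maintains natural killer cells and memory CD8+ T cells. It had 319, 385 and 407 counts in the control tumors, against 486, 533 and 394 counts in the IFN-γ tumors, or 19.9, 21.7 and 23.3 CPM against 28.2, 32.6 and 24.4 CPM. The lowest IFN-γ tumor was just above the highest control. By edgeR the fold change was 0.39 on the log2 scale (SE 0.13, 95% interval 0.099 to 0.68, unadjusted p = 0.015, adjusted p = 0.37), and without IFN-γ tumor 3 it was 0.48 (edgeR adjusted p = 0.066).

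IL-15 is presented to neighboring cells on its own receptor chain, Il15ra. That gene was at 6.31, 6.48 and 8.40 CPM in the control tumors, against 11.6, 14.1 and 5.38 CPM in the IFN-γ tumors, so IFN-γ tumor 3 was the lowest of the 6. Its difference on the log2 scale was 0.55 (edgeR adjusted p = 0.62), and without IFN-γ tumor 3 it was 0.85 and passed (edgeR adjusted p = 0.049). The log2 ratio of Il15ra to Il15 differed by 0.053 between the groups (exact permutation test, p = 1). Without IFN-γ tumor 3 that difference was 0.34 (exact permutation test, p = 0.2, the smallest p that 3 against 2 allow).

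Il12b (ENSMUSG00000004296, chromosome 11, 44400063 to 44414033, plus strand) encodes the subunit that IL-12 and IL-23 share. It was at 0.750, 2.48 and 2.63 CPM in the control tumors, against 2.79, 4.21 and 1.48 CPM in the IFN-γ tumors, from 12 to 69 counts per tumor. Control tumor 1 and IFN-γ tumor 3 were the lowest, and IFN-γ tumors 1 and 2 the highest. On the log2 scale, the IFN-γ group differed by 0.52 (SE 0.51, edgeR adjusted p = 0.79), and it ran from 0.12 without IFN-γ tumor 2 to 0.82 without IFN-γ tumor 3.

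The partners of Il12b were close to the floor. Il12a, which completes IL-12, had 1, 3 and 2 counts in the control tumors, against 5, 6 and 2 in the IFN-γ tumors. Il23a, which completes IL-23, had 6, 1 and 7 counts in the control tumors, against 3, 0 and 6 in the IFN-γ tumors. Neither passed the filter on low counts, and no change could be read at this depth. The receptor chains of IL-12 were at 6.29 to 16.9 CPM for Il12rb1 and 1.92 to 5.68 CPM for Il12rb2 over the 6 tumors, with overlapping groups.

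Il27 (ENSMUSG00000044701, chromosome 7, 126589010 to 126594941, minus strand) encodes the specific subunit of IL-27, which pairs with the product of Ebi3. It was at 0.938, 2.03 and 1.26 CPM in the control tumors, against 2.15, 2.81 and 1.36 CPM in the IFN-γ tumors, from 15 to 46 counts per tumor. Control tumor 2 lay within the range of the IFN-γ group. By edgeR the fold change was 0.57 on the log2 scale (SE 0.39, 95% interval -0.32 to 1.47, adjusted p = 0.68). The gene shares 103 of its 1021 exon bases with Apobr on the opposite strand, which was at 71.9 to 87.5 CPM, and the part of those reads in the Il27 counts was not tested.

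Ebi3 was at 6.31, 8.23 and 7.31 CPM in the control tumors, against 9.81, 9.41 and 8.04 CPM in the IFN-γ tumors, which edgeR put at 0.32 on the log2 scale (adjusted p = 0.58). The log2 ratio of Ebi3 to Il27 was 2.06 ± 0.24 in the controls, against 1.91 ± 0.31 in the IFN-γ tumors (SD, n = 3 each; exact permutation test, p = 0.6). The receptor chain Il27ra was at 3.46 to 9.59 CPM over the 6 tumors.

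**Figure D3:**
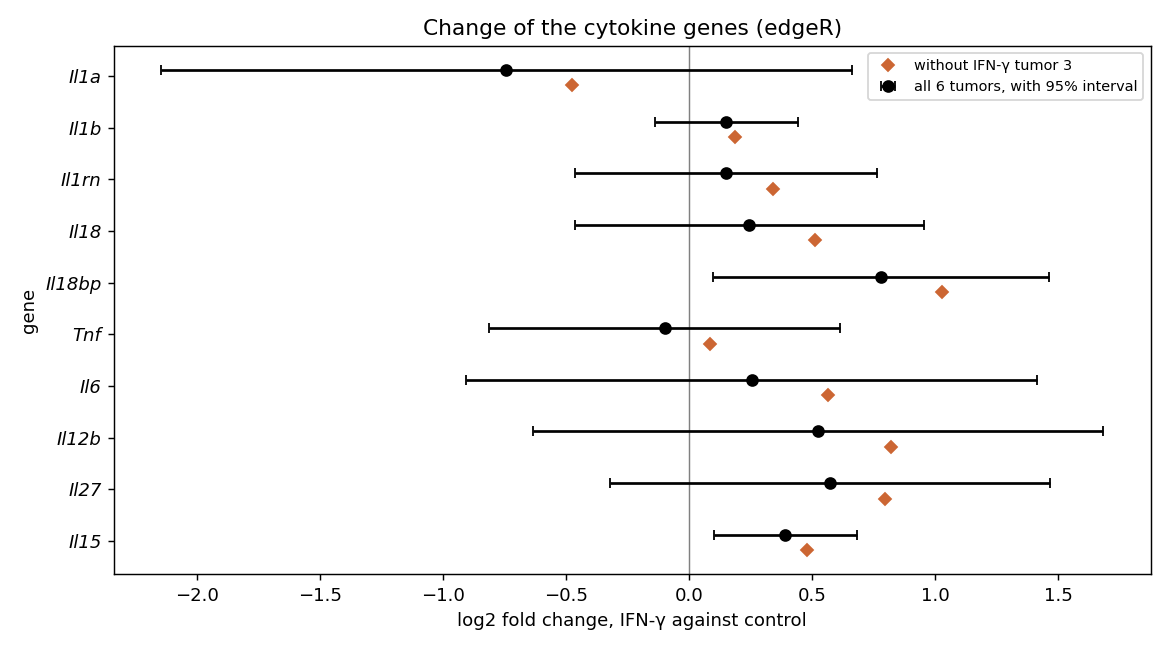
Log2 fold change of the IFN-γ group against the control group (horizontal axis) for the 10 genes, as black points with 95% intervals for all 6 tumors and as orange diamonds without IFN-γ tumor 3. The intervals of Il18bp and Il15 lie above 0 before adjustment, and those of Il1a, Il6 and Il12b are the widest.

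The 10 genes tended to be high or low together in a tumor. IFN-γ tumor 2 was the highest of the 6 for 8 of the 10 genes, beside 18.2% of all genes tested, and the exceptions, Il1a and Tnf, were highest in control tumor 2. Control tumor 1 was the lowest for 7 of the 10, beside 14.5% of all genes, and IFN-γ tumor 3 was the lowest for the other 3, Il6, Tnf and Il18, beside 21.3%. The summed CPM of the 10 genes was 90.0, 123 and 116 in the control tumors, against 142, 175 and 108 in the IFN-γ tumors. In IFN-γ tumor 2, 8 of the 10 genes were above every control, in IFN-γ tumor 1 it was 5 of 10, and in IFN-γ tumor 3 it was 1 of 10, Il15. Il1a had the widest range between tumors, 6.46-fold from lowest to highest, and Il1b the narrowest, 1.38-fold.

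Summed markers of immune cells were also highest in IFN-γ tumors 1 and 2. The summed CPM of 9 macrophage and monocyte markers was 2372, 2705 and 3017 in the control tumors, against 3833, 4780 and 2650 in the IFN-γ tumors. Most of each sum was Lyz2, at 1593, 1814 and 2168 CPM in the control tumors, against 2582, 3463 and 1856 CPM in the IFN-γ tumors. Of the 9 markers, 8 had a log2 fold change above 0, all but Cd14 at -0.039. By edgeR 0 were called (5 at an unadjusted p under 0.05). Without IFN-γ tumor 3, 5 of the 9 were called higher by edgeR, Ccr2, Fcgr1, Cd68, Adgre1 and Lyz2, with log2 fold changes from 0.49 for Cd68 to 1.2 for Ccr2. Over all genes tested, 10.2% had an unadjusted p under 0.05 in all 6 tumors, and 2.46% were called higher without IFN-γ tumor 3. For 7 dendritic cell markers the sums were 35.8 to 53.6 in the control tumors, against 66.0, 72.1 and 39.9 CPM in the IFN-γ tumors, and for 7 T cell markers 43.9 to 67.6 and 92.5, 107 and 36.9 CPM. The 5 natural killer cell markers summed to 12.8 to 23.4 CPM in the control tumors, against 23.8, 31.7 and 8.66 CPM in the IFN-γ tumors, with Klra8 at 0 counts in every tumor. Neutrophil markers were scarce, at 29.0 to 46.9 CPM for the sum of 6 genes, with Ly6g at up to 0.188 CPM. Of these, 4 were tested and 0 called in all 6 tumors (1 at an unadjusted p under 0.05), with a median log2 fold change of 0.36. Without IFN-γ tumor 3, 5 were tested and 1 called higher, Csf3r, with a median of -0.17. Adipocyte markers separated the groups, and the sum of 5 was 11.4, 5.98 and 10.3 CPM in the control tumors, against 25.5, 54.1 and 42.9 CPM in the IFN-γ tumors (0 called by edgeR, 5 at an unadjusted p under 0.05). Without IFN-γ tumor 3, 4 of the 5 were called higher and the median log2 fold change was 2.20. The dendritic cell, T cell, natural killer cell, endothelial and fibroblast lists had 0 calls in either fit. At an unadjusted p under 0.05 by edgeR, 2 dendritic cell markers, Xcr1 and Clec9a, were higher in all 6 tumors. At that p 2 endothelial markers, Kdr and Cdh5, were lower, and the T cell, natural killer cell and fibroblast lists had 0. All 5 endothelial markers had a log2 fold change below 0, beside 49.6% of all genes tested. The 5 endothelial markers summed to 234 to 290 and to 251, 205 and 182 CPM, and the 5 fibroblast markers to 2723 to 3815 and to 3619, 3858 and 2719 CPM. The part of these cells in the cytokine values was not tested.

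Keratinocytes are known sources of Il1a, Il1rn and Il18. The sum of 6 keratinocyte markers was 14.3, 6.93 and 7.26 CPM in the control tumors, against 9.17, 9.22 and 72.0 CPM in the IFN-γ tumors, with Krt14 at 33.2 CPM in IFN-γ tumor 3. Of these markers, 2 were tested, and 0 were called in all 6 tumors (1 at an unadjusted p under 0.05) and 1, Trp63, without that tumor. In IFN-γ tumor 3 Il1a and Il1rn lay above control tumor 1 and under the other tumors, and Il18 was the lowest of the 6. The part of keratinocytes in these values was not tested.

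**Figure D4:**
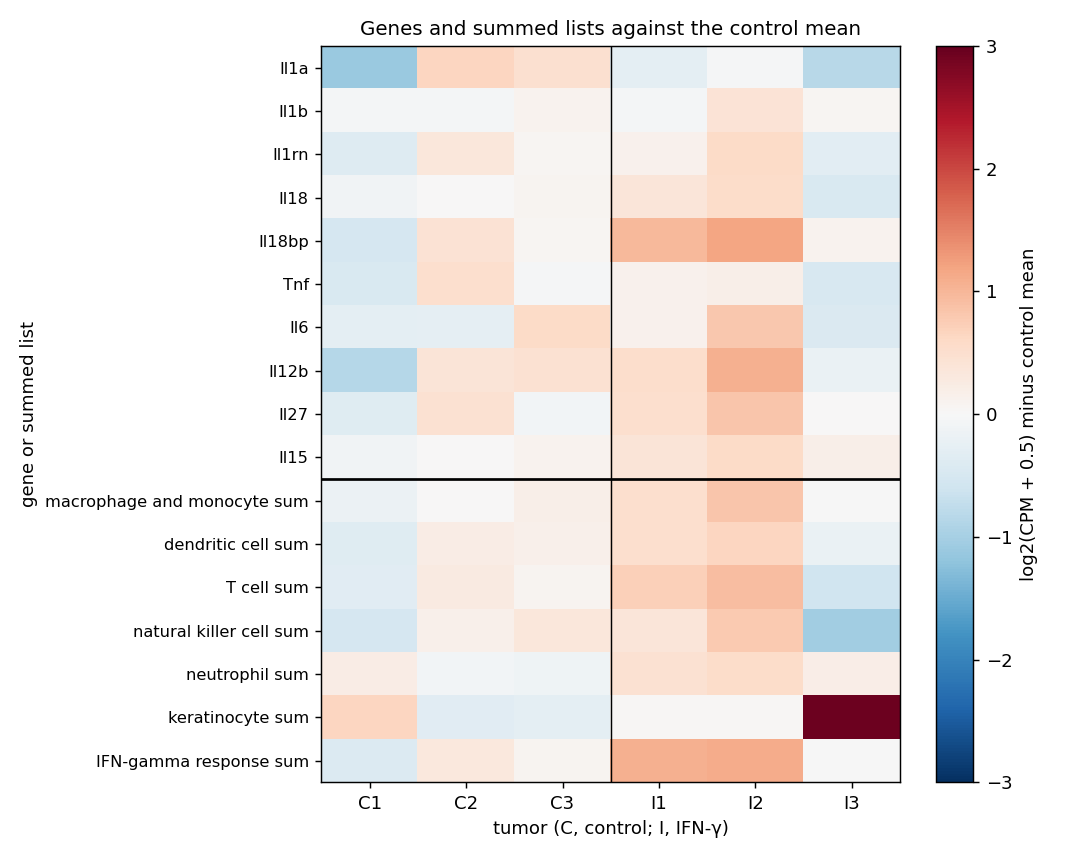
Color gives log2 of CPM plus 0.5 minus the mean of the controls, for each gene (upper rows) and for the summed CPM of marker and response lists (lower rows), in control tumors C1 to C3 and IFN-γ tumors I1 to I3. Columns I1 and I2 are red for most rows, I3 is at most 0.19 in every row but the keratinocyte sum, at 2.94, and C1 is under the mean of the controls for all 10 genes.

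Genes that textbooks give as induced by IFN-γ were, in sum, higher in IFN-γ tumors 1 and 2 than in any other tumor. Of 17 such genes, 16 had a log2 fold change above 0, with a median of 0.62 in all 6 tumors, beside 0.00 for all genes. By edgeR 0 of the 17 were called, and 10 had an unadjusted p under 0.05, beside 10.2% of all genes tested. Their summed CPM was 1526, 2526 and 2131 in the control tumors, against 4212, 4389 and 1998 in the IFN-γ tumors. Socs1, the feedback inhibitor of JAK kinases, was the gene with the smallest p, at 17.1 to 17.8 CPM in the control tumors, against 25.3, 23.5 and 27.1 CPM in the IFN-γ tumors (log2 fold change 0.54, standard error 0.10, edgeR adjusted p = 0.14). Its groups did not overlap, as for 7.62% of all genes tested in that direction, and it was highest in IFN-γ tumor 3. Gbp2, Igtp and Irgm1, which encode GTPases of cell-autonomous immunity, had log2 fold changes of 1.04, 0.93 and 0.80 (adjusted p = 0.30, 0.37 and 0.39, edgeR). Without IFN-γ tumor 3, 12 of the 17 were called higher, beside 2.46% of all genes tested in that fit, and the median was 0.86.

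IFN-γ itself, the product these cytokines promote, was scarce as RNA. Ifng had 7, 13 and 23 counts in the control tumors, against 27, 41 and 5 in the IFN-γ tumors, or 0.438, 0.733 and 1.31 CPM against 1.57, 2.51 and 0.309 CPM. IFN-γ tumors 1 and 2 were above every control and IFN-γ tumor 3 under every control, as for Il18 and Il18r1. Its difference on the log2 scale was 0.81 (SE 0.67, edgeR adjusted p = 0.75).

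None of the genes that release IL-1β, IL-18 and TNF passed the threshold in all 6 tumors. Of the 11 genes, 0 were called by edgeR (1 at an unadjusted p under 0.05, beside 10.2% of all genes tested). The log2 fold change was above 0 for 8, and the median was 0.16. Gsdmd, which encodes the pore that lets IL-1β and IL-18 out, had the smallest p, at 66.2, 75.8 and 67.8 CPM in the control tumors, against 91.4, 94.5 and 79.2 CPM in the IFN-γ tumors (log2 fold change 0.34, standard error 0.092, edgeR adjusted p = 0.30). Its groups did not overlap, as for 7.62% of all genes tested in that direction. It passed without IFN-γ tumor 3 (log2 fold change 0.40, edgeR adjusted p = 0.044). Casp1, the protease that cuts IL-1β and IL-18, had a log2 fold change of 0.17 (edgeR adjusted p = 0.70), and Pycard, its adaptor, of 0.53 (edgeR adjusted p = 0.50). Nlrc4 was at 0.42 (edgeR adjusted p = 0.69) and Capn2, a calpain, at -0.097 (edgeR adjusted p = 0.68). Adam17, which sheds TNF, was at -0.17 (edgeR adjusted p = 0.73).

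The other lists held as few calls. Of the 15 receptor genes, 0 were called by edgeR, and the median log2 fold change was 0.14. At an unadjusted p under 0.05 there were 3, 1 of them lower, beside 10.2% of all genes tested. Of 19 signaling genes, 0 were called (5 at an unadjusted p under 0.05, beside the same 10.2%), with a median of 0.098. The log2 fold change was above 0 for 11 of them and below 0 for 8. Nfkbia, the inhibitor of NF-κB that NF-κB itself induces, was at 61.3, 65.0 and 67.1 CPM in the control tumors, against 81.5, 93.0 and 70.4 CPM in the IFN-γ tumors, without overlap (log2 fold change 0.34, edgeR adjusted p = 0.35). Such separation with the IFN-γ group higher held for 3 of the 19 signaling genes, Nfkbia, Irak4 and Jak2, beside 7.62% of all genes tested. Irak2 and Irak4, kinases of the IL-1 receptor pathway, had log2 fold changes of 0.38 and 0.25 (adjusted p = 0.40 each, edgeR), and Jak2 of 0.18 (edgeR adjusted p = 0.43). Without IFN-γ tumor 3, 2 receptors (Il15ra as given and Tnfrsf1b with a log2 fold change of 0.40, edgeR adjusted p = 0.037), 1 signaling gene (Nfkbia with one of 0.43, edgeR adjusted p = 0.036) and 1 processing gene (Gsdmd) were called higher. In that fit 2.46% of all genes tested were called higher.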

How the data were processed

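Counts of reads per gene from 6 tumors were deposited by the authors as whole numbers without normalization, 1 column per tumor. The submitters' processing notes name HISAT2 and mm10. The counting program, annotation and strandedness are not given in the sources used here. Of the identifiers, 99.4% were in GENCODE M21 (GRCm38), which gave positions, exon lengths and overlaps.

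CPM used TMM factors. All genes were tested with edgeR 4.0.16 (R 4.3.3): default filter on low counts, quasi-likelihood test, Benjamini-Hochberg adjustment, threshold 0.05. Standard errors were the log2 fold change divided by the square root of F, and 95% intervals used the t quantile of the test's degrees of freedom. Ratios used log2 of CPM plus 0.5 and exact permutation tests (SciPy 1.17.1). DESeq2 1.42.0, limma 3.58.1 (voom), other scalings, no filter, a replicate block and leaving out each tumor were alternatives. On simulated counts with 200 of 14896 genes changed 2-fold, edgeR recovered 86.5% with 15 false calls. The changed genes were drawn only from genes with a higher mean count than Il1a, Il6, Il12b and Il27. The share recovered therefore does not apply to these scarce genes, nor to changes smaller than 2-fold. Each simulated gene was drawn independently, so no simulated tumor stood apart over many genes as IFN-γ tumor 3 did. The share therefore does not carry over to the abundant genes of these tumors either. Gbp2, with a fold change of 2.06, had an edgeR adjusted p of 0.30 in all 6 tumors.

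The 10 genes and the hand-written lists were chosen with earlier results of these data known, and the colon markers after the files were seen. Named were the 10 genes, their receptors, subunits and proteases, and up to 4 genes per pathway list with the smallest p. The choice of marker genes named as called without IFN-γ tumor 3 followed a look at their values. The 2 genes nearest to each of the 10 were those with the smallest root mean square distance between centered log2 CPM profiles. Il36a and Il36rn were matched under the older symbols Il1f6 and Il1f5. A further promoter motif is not reported here.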

Additional observations from a re-analysis of the deposited data

How the results depend on the processing

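Of 120 comparisons of the 10 fold changes with an alternative, 118 had an adjusted p, and the others were compared by sign alone. On that basis 114 were unchanged, 1 passed only under the alternative and 5 changed sign. Leaving out 1 tumor moved the number of the 10 genes called from 0 to between 0 and 1, with Il18bp called without IFN-γ tumor 3. Its log2 fold change then ran from 0.56 to 1.03, that of Il1rn from -0.11 to 0.34, that of Il6 from -0.28 to 0.75 and that of Tnf from -0.32 to 0.22. The difference in log2 ratio ran from -0.12 to 0.20 for Il1rn to its agonists, from -0.11 to 0.34 for Il15ra to Il15, from -0.29 to 0.018 for Ebi3 to Il27 and from 0.40 to 0.81 for Il18bp to Il18. Il1a and Il6 had no adjusted p with DESeq2.

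Over all genes, 12 were called higher and 5 lower. Leaving out 1 tumor gave 4 to 381 higher and 2 to 112 lower, the most without IFN-γ tumor 3. DESeq2 gave 125 and 71, no filter on low counts 150 and 70, library size only 7 higher and limma-voom 3 lower. Of the genes in the pathway lists, 0 were called in all 6 tumors, 1 with DESeq2 (Socs1), 4 with no filter (Gbp2, Igtp, Irgm1 and Socs1), and 0 to 17 with 1 tumor left out. Apart from the tumors left out, the cause was not tested.

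The labels number the tumors of both groups alike. Adding that number as a replicate block called 5 genes higher, 2 lower and 0 of the 10. Deviations of same-numbered tumors from their group means correlated at -0.24, -0.0047 and -0.22, and the numbers were therefore not treated as pairs. With 12 to 69 counts of Il12b and 6 to 43 of Il1a per tumor, depth limits what can be said of the scarce cytokines.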

Other observations

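Of 9 other cytokines of this kind, 5 were tested and 0 were called in all 6 tumors by edgeR (0 at an unadjusted p under 0.05), with a median log2 fold change of 0.44. Il33, an IL-1 family alarmin of stromal cells that lies outside the 10 genes, had the largest fold change among them. It was at 15.6, 19.3 and 29.1 CPM in the control tumors, against 46.4, 56.6 and 16.4 CPM in the IFN-γ tumors. IFN-γ tumors 1 and 2 were above every control and IFN-γ tumor 3 was not. The log2 fold change was 0.90 in all 6 tumors (standard error 0.41, adjusted p = 0.50, edgeR) and 1.26 without IFN-γ tumor 3 (standard error 0.22, adjusted p = 0.024, edgeR). Il10, which restrains macrophages, had a log2 fold change of 0.44 (edgeR adjusted p = 0.76) and Ltb, a lymphotoxin, of 0.38 (edgeR adjusted p = 0.72). The IL-36 branch was at or near the floor, with 32 counts of Il1f9, 4 of Il1f6 and 5 of Il1f5 in the 6 tumors together. All 5 counts of Il1f5 and 3 of the 4 of Il1f6 were in IFN-γ tumor 3, the tumor with the keratinocyte markers.

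Il18rap, the signaling chain of the IL-18 receptor, was at 21.6 CPM per kilobase on average in the controls, against 1.70 for Il18r1, the chain it works with. Over the 6 tumors Il18rap lay between 17.6 and 25.02 CPM per kilobase and Il18r1 between 1.05 and 3.33. Il18rap was at 148, 169 and 121 CPM in control tumors 1, 2 and 3, against 133, 119 and 140 CPM in IFN-γ tumors 1, 2 and 3. The natural killer cell markers summed to 12.8, 20.5 and 23.4 CPM in the control tumors, against 23.8, 31.7 and 8.66 CPM in the IFN-γ tumors. A relation between them was not tested. As background, this receptor is known from natural killer cells and T cells.

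The genes whose pattern over the 6 tumors was nearest to each of the 10, among the 15114 tested, are given as a description. For Il15 they were Psme2, a subunit of the proteasome activator, and Nfkbia, at distances of 0.023 and 0.035 on the log2 scale. For Il18bp they were Gbgt1 and Slc28a2b, at 0.087 and 0.097. Il1b was nearest to Ttll1 and Ftl1-ps1, Il1rn to Ppfibp2 and Mag, Il18 to Slc38a1 and Lat, and Il27 to Fut4 and Calhm5. Tnf was nearest to Fpr1, a formyl peptide receptor of phagocytes, and BC043934, Il6 to Fstl1 and Ecm2, and Il12b to Rasgrf2 and Adora2a. Il1a was nearest to Col8a2 and Pou2af1, at 0.21 and 0.22, the farthest of the 10.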
